A study of Mus musculus with 12 samples.

Results

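Within the CD8 T cells of NOD mouse islets there is a population that holds transcripts of both Tcf7 and Pdcd1 and none of Havcr2 or Mki67, and these progenitor-like cells are described here. A cell was counted in this population if its droplet held at least 1 unique molecular identifier (UMI, the tag that marks 1 captured transcript) of Tcf7 and at least 1 of Pdcd1, with 0 UMIs of Havcr2 and 0 of Mki67. The members were thus chosen by the measured counts of these 4 genes. Of 18163 islet cells that had under 5% mitochondrial UMIs and between 200 and 3500 detected genes, 2069 met the rule, out of 24117 cells kept in all 6 scRNA-seq libraries of islet and spleen. The cells came from female NOD/ShiLtJ mice of 10 to 15 weeks, 10 mice pooled in each of 2 independent rounds, and no cell can be traced to 1 mouse. From each pool, islet CD8 T cells that were CD45.1+ and lacked CD4, B220 and CD11b were sorted by binding of an H-2Kd tetramer loaded with NRP-V7, a peptide that mimics residues of the β cell protein IGRP, into 1 tetramer-negative and 1 tetramer-positive library. The labels name no transgene, deletion or treatment. The tetramer-negative libraries held 705 and 959 members in Round 1 and Round 2, and the tetramer-positive libraries held 145 and 260. Each library was sequenced for both gene expression and the T-cell receptor (TCR).

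TCF-1, the product of Tcf7, is the transcription factor that keeps CD8 T cells able to renew themselves, and PD-1, the product of Pdcd1, is an inhibitory receptor that is induced by signals through the TCR. In chronic infection, in tumors and in autoimmune diabetes, CD8 T cells that hold both proteins are known as stem-like or progenitor cells, which divide and give rise to cytotoxic progeny that lose TCF-1 and gain TIM-3, the product of Havcr2. Slamf6, the surface marker most often used with TCF-1 to find such cells, was not part of the rule.

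The TCR identifies the descendants of 1 naive T cell, since the CDR3 loops of its α and β chains are assembled anew in each precursor. Cells with exactly 1 productive α and 1 productive β chain were grouped into a clone if both CDR3 nucleotide sequences were identical. The CDR3 sequences below, given 5′ to 3′ as the deposited contig annotations hold them, belong to the clones that the results on clonality turn on, namely clones with members in both pools of mice (A to D), clones that gave the most or second most members in a library (E, F and I to K) and clones picked for a high share of members (G and H). The letters A to K were assigned here. Clone A is printed in lower case, and capitals in each other sequence mark the stretch that remains after the bases shared with clone A at either end are taken away.
Clone A, alpha (TRAV16N, TRAJ42): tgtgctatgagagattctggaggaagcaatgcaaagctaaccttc
Clone A, beta (TRBV13-3, TRBJ2-4): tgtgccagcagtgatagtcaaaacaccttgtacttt
Clones B and E, alpha (TRAV16N, TRAJ42): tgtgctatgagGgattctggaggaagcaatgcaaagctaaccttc
Clones B and C, beta (TRBV13-3, TRBJ2-4): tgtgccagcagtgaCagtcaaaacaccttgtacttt
Clone D, alpha (TRAV16N, TRAJ42): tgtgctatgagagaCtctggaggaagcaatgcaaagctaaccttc
Clone E, beta (TRBV13-3, TRBJ2-4): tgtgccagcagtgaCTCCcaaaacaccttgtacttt
Clone F, beta (TRBV13-3, TRBJ2-4): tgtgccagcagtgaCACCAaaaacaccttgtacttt
Clone G, alpha (TRAV16N, TRAJ42): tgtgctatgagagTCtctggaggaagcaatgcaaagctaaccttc
Clone G, beta (TRBV13-3, TRBJ2-7): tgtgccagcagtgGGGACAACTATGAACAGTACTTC
Clone H, alpha (TRAV16N, TRAJ53): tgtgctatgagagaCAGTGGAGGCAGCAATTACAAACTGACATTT
Clone H, beta (TRBV15, TRBJ2-7): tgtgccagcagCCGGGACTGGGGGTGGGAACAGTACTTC
Clone I, alpha (TRAV6N-7, TRAJ18): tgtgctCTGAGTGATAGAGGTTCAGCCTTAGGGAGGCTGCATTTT
Clone I, beta (TRBV16, TRBJ2-2): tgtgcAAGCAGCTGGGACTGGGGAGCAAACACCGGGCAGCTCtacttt
Clone J, alpha (TRAV16N, TRAJ49): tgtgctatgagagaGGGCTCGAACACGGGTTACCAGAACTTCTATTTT
Clone J, beta (TRBV15, TRBJ2-2): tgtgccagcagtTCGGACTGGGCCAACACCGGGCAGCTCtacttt
Clone K, alpha (TRAV9D-3, TRAJ53): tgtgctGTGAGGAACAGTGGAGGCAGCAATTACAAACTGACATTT
Clone K, beta (TRBV10, TRBJ1-6): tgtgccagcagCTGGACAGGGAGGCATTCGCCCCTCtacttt
Clones C and F held the alpha sequence of clone A, and clone D held the beta sequence of clone A. Clones A to D were present in both pools, E and H only in tetramer-positive Round 1, F and G only in tetramer-positive Round 2, J only in tetramer-negative Round 1 and K only in tetramer-negative Round 2, among the cells with a paired TCR in the islet libraries. Clone I was a clone of tetramer-negative Round 1 with 1 cell in the tetramer-positive library of the same round.

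Members were present in every islet library, in each sort and round. They were 11.0% of tetramer-negative cells in Round 1 (exact 95% interval 10.2 to 11.8) and 10.7% in Round 2 (10.1 to 11.4), against 12.0% (10.3 to 14.0) and 16.3% (14.5 to 18.2) of tetramer-positive cells. The mean shares were 10.9 and 14.2%, a difference of 3.31 percentage points with a two-sided exact permutation p of 0.333, the smallest that 2 libraries against 2 can give. Cells with Tcf7 but no Pdcd1, Havcr2 or Mki67 made up 25.8 and 29.4% of the tetramer-negative libraries and 4.73 and 6.76% of the tetramer-positive ones. Pdcd1 was found in 29.8 and 26.8% of Tcf7+ cells without Havcr2 and Mki67 among tetramer-negative cells and in 71.8 and 70.7% among tetramer-positive cells. Cells with both Havcr2 and Pdcd1 and no Mki67 made up 3.27 and 3.73% of the tetramer-negative libraries and 10.7 and 13.9% of the tetramer-positive ones.

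**Figure D1:**
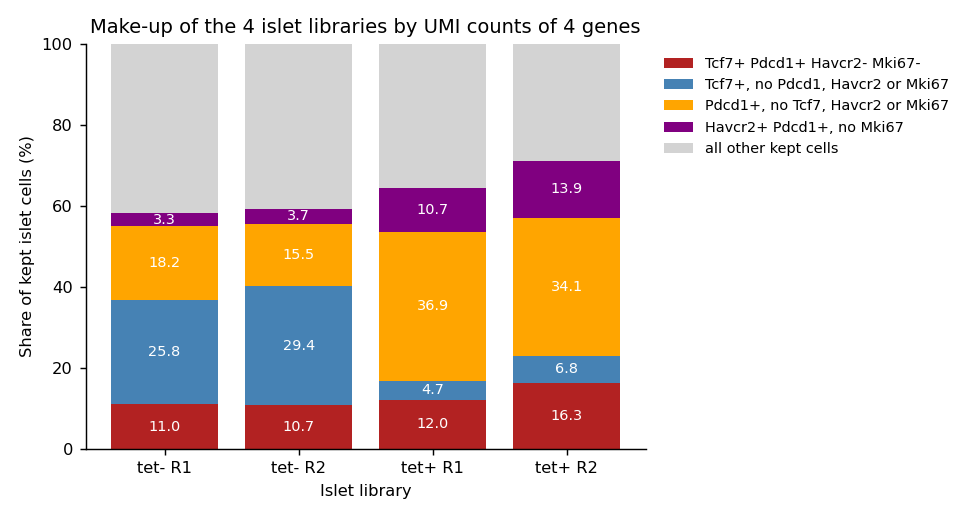
Share of kept cells (%) in each of the 4 islet libraries that fell into each combination of UMI counts of Tcf7, Pdcd1, Havcr2 and Mki67, as stacked bars that add up to 100%. Members took 10.7 to 16.3% of every library, whereas Tcf7+ cells without Pdcd1 took 25.8 and 29.4% of the tetramer-negative libraries and 4.73 and 6.76% of the tetramer-positive ones.

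Whether a gene is detected in a cell depends on how many UMIs the cell has. Members had medians of 4600 to 5261 UMIs per cell and the other islet cells 3671 to 4120 across the 4 libraries, and the summed UMIs of members were 3911631, 5279931, 814355 and 1413690 for tetramer-negative Round 1 and 2 and tetramer-positive Round 1 and 2. After each cell was thinned to 1000 UMIs, members made up 1.58, 1.89, 2.55 and 4.05% of the same libraries in that order. At the unthinned depth, most members rested on a single Tcf7 transcript, since 55.0 to 66.2% of the members of a library had exactly 1 Tcf7 UMI, up to a maximum of 14. Pdcd1 was less sparse, with 3 or more UMIs in 45.5 to 68.5% of members. At the edge of the rule, 158, 177, 33 and 23 members had exactly 1 UMI of each gene, and 61, 99, 17 and 25 cells lay just outside it, with Tcf7, Pdcd1 and 1 UMI of Havcr2 or Mki67. The chemokine receptor gene Cxcr6 was at 93.8, 145.6, 39.4 and 121.9 CPM (UMIs of the gene per 1000000 UMIs of the summed cells) just inside and 212.6, 275.0, 44.7 and 385.8 CPM just outside. Slamf6 was at 96.8, 119, 63.0 and 171 CPM just inside and 96.8, 104, 83.0 and 93.7 CPM just outside. Within members, cells with 3 or more Tcf7 UMIs had less of the chemokine gene Ccl5 than cells with 1 in every library, from 9163 to 4568 CPM, from 7871 to 4120, from 11160 to 5089 and from 10549 to 4731. Cxcr6 was lower as well, from 160 to 90.5, from 212 to 79.8, from 117 to 69.3 and from 199 to 38.3 CPM. These are descriptions of the cells as chosen, and the part of depth in them was not tested.

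The label was checked against Slamf6 and against markers of other cells. A Slamf6 UMI was found in 39.4 and 43.1% of tetramer-negative members and 40.0 and 42.7% of tetramer-positive members, compared with 23.1, 24.1, 15.6 and 21.4% of the other cells of the same libraries and 9.52, 18.9, 10.9 and 12.2% of the Havcr2+ Pdcd1+ cells. When all cells were thinned to 1000 UMIs, these shares were 10.4, 10.7, 13.8 and 11.2% in members, 6.78, 7.10, 4.07 and 5.41% in other cells and 2.38, 3.31, 1.55 and 1.36% in Havcr2+ Pdcd1+ cells. In Tcf7+ cells without Pdcd1, Havcr2 or Mki67 the shares were 28.2, 28.5, 42.1 and 51.9%, and 8.65, 8.35, 14.0 and 10.5% after thinning. Slamf6 thus did not set members apart from these cells in the tetramer-positive libraries. The transcripts of 12 T-cell genes, among them Cd3e and Cd8a, summed to 7161 to 8118 CPM in members. Of the genes listed for other cells, Pax5, Ebf1 and Iglc2 of B cells, Adgre1 of macrophages and Ncr1 of NK cells had 0 UMIs in members of all 4 libraries, while other genes of the same lists were present. The 14 exocrine pancreas genes included Prss2, with a UMI in 4.11 and 5.94% of tetramer-negative and 2.07 and 3.85% of tetramer-positive members, and the list summed to 167 to 369 CPM in tetramer-negative and 82.1 to 87.2 CPM in tetramer-positive members, while 13 myeloid genes summed to 174 to 230 and 188 to 193 CPM and 10 B-cell genes to 74.4 to 124 and 108 to 110 CPM. A UMI of any of 8 defining exocrine, B-cell and myeloid genes was seen in 65, 101, 7 and 18 members. More than 1 β-chain contig, as doublets or a second rearranged allele give, was listed for 3.26, 5.63, 1.38 and 0.77% of members. In the other cells of the same libraries these shares were 1.502, 3.361, 2.077 and 0.897%. Members were thus higher in the tetramer-negative libraries only. The B-cell genes summed to 84.27, 59.99, 70.07 and 79.48 CPM in other cells, below members in each library. The myeloid genes were above members in each library, and the exocrine genes went both ways. The part of doublets in the membership was not tested. The tetramer-negative libraries shared 64 barcodes of kept cells and the other pairs 2 to 16, and at most 1 barcode was a member in both libraries of a pair.

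Compared with the other islet cells, members had more Slamf6 and less Gzmb, Cxcr6 and transcripts of cell-cycle genes. Since the rule chose the cells on the same transcripts, these differences are given as levels with no test. A gene was counted where it differed at least 1.5-fold on the log2(CPM + 10) scale in the same direction in all 4 libraries, which held for 14 of 18371 genes that were higher in members (0.0762%) and 23 that were lower (0.125%). These counts hold genes of the rule itself, Tcf7 among the higher and Mki67 and Havcr2 among the lower ones. Slamf6 was at 113, 130, 104 and 129 CPM in members of the 2 tetramer-negative and the 2 tetramer-positive libraries and at 70.7, 75.3, 40.1 and 59.4 CPM in the other cells, a mean log2 difference of 0.88. Nrn1, which encodes the GPI-anchored protein neuritin, averaged 110 CPM in members and 36.8 in other cells. Ccr8, a chemokine receptor gene, averaged 54.3 and 16.2 CPM, Tbc1d4, a regulator of glucose transporter traffic, 203 and 89.6, and Nsg2, a gene best known from neurons, 87.4 and 39.4. Xcl1 encodes the chemokine that attracts cross-presenting dendritic cells, and it averaged 755 CPM in members and 408 CPM in other cells. The cytotoxicity gene Gzmb (granzyme B) was at 49.6, 68.4, 17.2 and 12.7 CPM in members and at 135, 188, 213 and 268 CPM in other cells, a mean log2 difference of -2.32. Entpd1, which encodes the ectonucleotidase CD39, averaged 8.40 and 69.9 CPM, Cxcr6 125 and 450, and Fasl, the death ligand gene, 27.6 and 90.3. Nsg2, Xcl1 and Fasl kept 1 direction in all 4 libraries but fell short of 1.5-fold in at least 1, so they are not in the counts. Of 20 cell-cycle genes 11 were counted as lower, with a median of -0.97, among them Birc5 at -1.52 and Mki67, which was at 0 by the rule, beside a median near 0 over all genes.

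Against Tcf7+ cells without Pdcd1, members had 15 genes counted as higher (0.0901% of 16644), Pdcd1 of the rule among them, and none as lower. S100a4, a calcium-binding protein gene of migratory T cells, averaged 229 CPM in members and 39.0 in these cells, and Ccr8 averaged 54.3 and 4.46 CPM. Cxcr6, which was lower in members than in all other cells together, was higher in members than in these cells, with 125 against 39.2 CPM, and the inhibitory receptor gene Cd160 averaged 62.3 and 26.9 CPM. In the other direction, Lef1, the relative of Tcf7, averaged 76.3 CPM in members and 227 CPM in Tcf7+ Pdcd1- cells. For Lef1, Tox and Xcl1 the sets lay closer together in the tetramer-positive libraries, whereas S100a4 and Ccr8 lay furthest apart in tetramer-positive Round 2, at 306 against 25.9 CPM and at 80.6 against 1.85 CPM. Lef1 was at 95.9 and 111 CPM in tetramer-negative members and 441 and 357 CPM in tetramer-negative Tcf7+ Pdcd1- cells, and at 56.5 and 41.7 against 62.3 and 48.2 CPM among tetramer-positive cells. Tox, the transcription factor gene of chronically stimulated T cells, was at 195 and 168 against 80.7 and 67.8 CPM in the tetramer-negative libraries and at 308 and 286 against 304 and 317 CPM in the tetramer-positive ones. Xcl1 was at 615 and 556 against 151 and 151 CPM in tetramer-negative libraries and 745 and 1105 against 913 and 815 CPM in tetramer-positive ones.

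Against Havcr2+ Pdcd1+ cells, the contrast was wider, with 107 genes counted as higher in members (0.683% of 15671) and 137 as lower (0.874%), Tcf7 and Havcr2 of the rule among them. Of 23 progenitor and stemness genes, 11 were higher, Tcf7 of the rule among them, and 0 lower, with a median of 0.96. Ccr7, which guides T cells to lymph nodes, was at 332, 715, 345 and 602 CPM in members and at 60.2, 144, 31.8 and 66.1 CPM in Havcr2+ Pdcd1+ cells, with no overlap between the sets. Il7r, the receptor gene for the survival cytokine IL-7, was at 168, 163, 18.4 and 48.8 CPM against 24.7, 38.8, 0 and 3.75 CPM. Plaur, the urokinase receptor gene, averaged 148 and 19.8 CPM. Of 18 cytotoxicity genes, 9 were lower and 0 higher, with a median of -0.89, and Gzmb averaged 37.0 CPM in members and 550 CPM in Havcr2+ Pdcd1+ cells. Prdm1, which encodes the effector transcription factor BLIMP-1, was at 6.39, 9.85, 0 and 2.83 CPM in members and averaged 72.0 CPM in Havcr2+ Pdcd1+ cells. Ccl4 averaged 140 and 792 CPM, and Ccr2 28.5 and 153 CPM. Tox did not belong to either count, with 195, 168, 308 and 286 CPM in members and 259, 211, 274 and 230 CPM in Havcr2+ Pdcd1+ cells. Pdcd1+ cells without Tcf7, Havcr2 or Mki67 lay between these sets, with 12 genes counted as higher in members (0.0736% of 16306), Lef1, Ccr7, Slamf6 and Tcf7 of the rule among them, and 28 as lower (0.172%), led by Gzmb at -2.36 and Cxcr6 at -2.20.

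**Figure D2:**
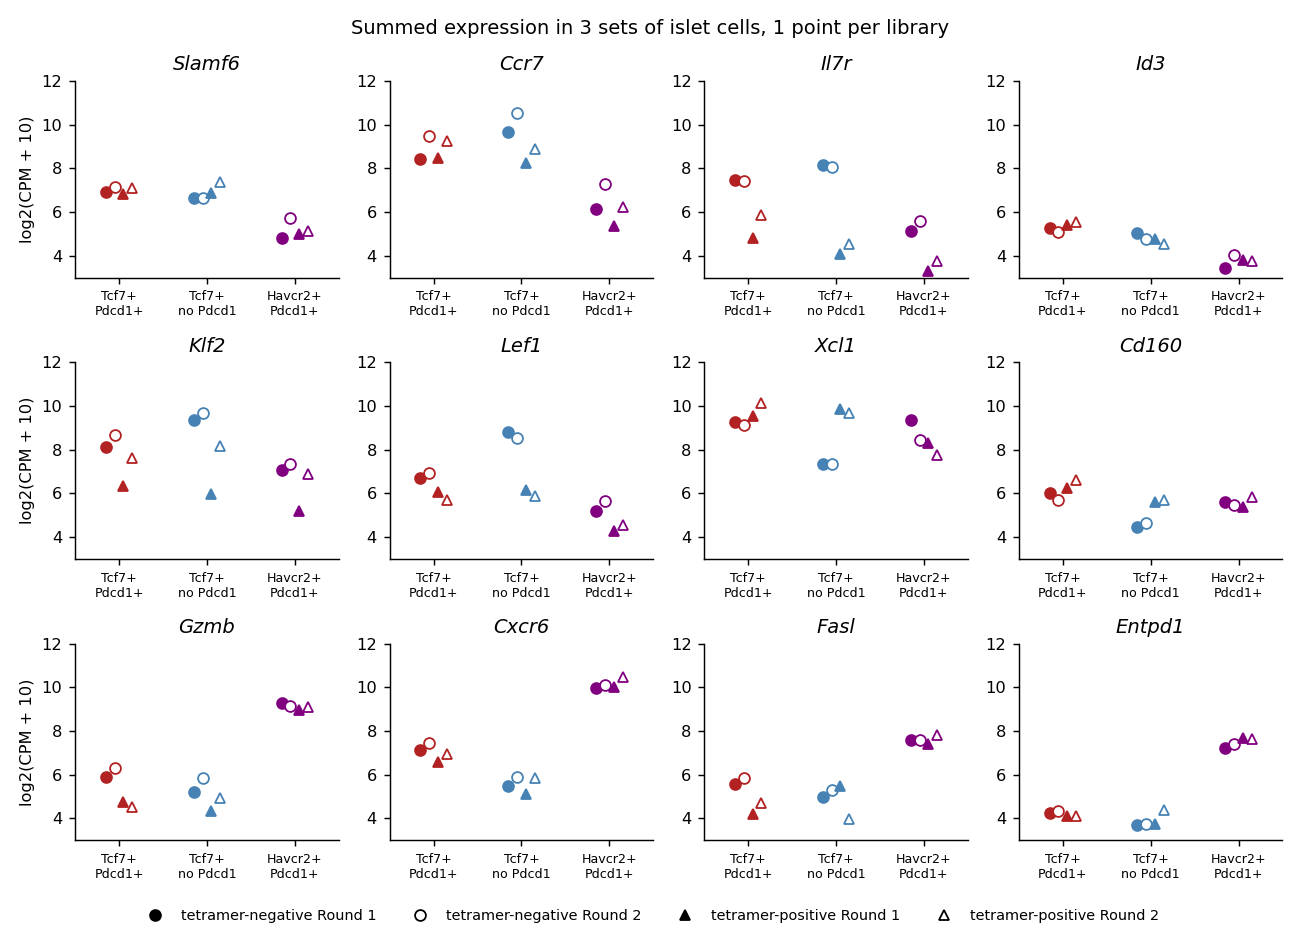
Levels of 12 named genes as log2(CPM + 10) in members, in Tcf7+ cells without Pdcd1 and in Havcr2+ Pdcd1+ cells, with 1 point for the summed UMIs of each islet library, circles for tetramer-negative and triangles for tetramer-positive libraries, filled for Round 1 and open for Round 2. Gzmb and Cxcr6 were highest in Havcr2+ Pdcd1+ cells, Ccr7 was higher in members than in Havcr2+ Pdcd1+ cells in each library, and Il7r and Klf2 separated the tetramer-negative from the tetramer-positive points within the members.

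The comparison of tetramer-positive with tetramer-negative members asked which genes differ by sort among cells that met the same rule, and 1 gene outside the TCR segments passed the test. The sorts also differed in clonality, with 68.6 and 63.1% of paired tetramer-negative members and 96.4 and 97.5% of tetramer-positive ones in clones of at least 2 cells. The part of specificity for IGRP in the differences was not tested apart from this. With the 2 libraries of a sort as replicates and no other term, edgeR's quasi-likelihood test called 3 of 9245 genes at an adjusted p under 0.05 (0.0324%), and 631 genes had an unadjusted p under 0.05. The 3 were Gzma and the TCR segments Trbv14 and Trbv29, all lower in tetramer-positive members. Gzma, the granzyme A gene (ENSMUSG00000023132, chr13:113093825-113100981 in mm10, minus strand), had 441 and 593 UMIs in tetramer-negative members and 0 and 0 in tetramer-positive members, with an adjusted p of 0.029 by edgeR. Against a floor of 3 UMIs over both tetramer-positive sets, its level of 112 CPM in tetramer-negative members was 83.5-fold higher. The floor treats UMIs as independent, which they were not, so this ratio is no lower bound. The UMIs were concentrated in few cells: 58 of 705 and 91 of 959 tetramer-negative members held any, with a median of 2 and up to 57 and 111 in a cell, and 0 of 405 tetramer-positive members did, which allows a share of up to 0.741% of cells with a UMI and limits detection, not expression. Among other cells of the same libraries, a Gzma UMI was found in 7.01, 8.98, 5.29 and 5.53%, so the tetramer-positive libraries were not without it. Gzmb was detected in 44.8 and 40.7% of the tetramer-negative members with Gzma and in 3.71 and 5.76% of those without. The call on Gzma was lost when a Slamf6 UMI was also asked of members (adjusted p = 0.056, edgeR) and without the upper limit on genes per cell (adjusted p = 0.073, edgeR).

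The libraries of a round came from the same pool of mice, and with the round as a block 811 of the 9245 genes passed (8.77%), 355 higher (3.84%) and 456 lower (4.93%) in tetramer-positive members. This fit leaves 1 residual degree of freedom per gene, so its p-values lean on the spread shared across genes. The adjusted p-values that follow are from this blocked edgeR fit, with that of the fit without a block given beside some genes. Of the genes named for this comparison, Gzma alone passed without the block. Among progenitor and stemness genes, 13 of 22 fell and 2 rose, with a median of -0.67 beside a median near 0 for all genes tested, whereas none passed without the block. Genes of circulation and quiescence were among those that fell. S1pr1 (ENSMUSG00000045092, chr3:115710433-115715072, minus strand), the receptor gene for egress into blood and lymph, was at 104 and 135 CPM in tetramer-negative and 25.8 and 24.1 CPM in tetramer-positive members, a log2 difference of -2.24 (adjusted p = 2.04e-24; 0.0945 without the block). Il7r (ENSMUSG00000003882, chr15:9505788-9530176, minus strand) differed by -2.15 on the log2 scale (adjusted p = 3.32e-27; 0.182 without the block), and both tetramer-positive values lay below both tetramer-negative ones. Klf2, the transcription factor gene that drives S1pr1, was at 268 and 394 against 71.2 and 187 CPM (-1.34, adjusted p = 4.27e-15; 0.569 without the block), and Lef1 at 95.9 and 111 against 56.5 and 41.7 CPM (-1.05, adjusted p = 8.03e-07; 0.509 without the block).

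Other progenitor genes did not pass either fit. Slamf6 differed by 0.01 and Ccr7 by -0.04 on the log2 scale in the blocked fit, and Ccr7 followed the round more than the sort, with 332 and 345 CPM in Round 1 and 715 and 602 CPM in Round 2. Id3, a transcriptional regulator gene of progenitor cells, was at 29.1 and 24.2 against 33.2 and 37.5 CPM (adjusted p = 0.147 in the blocked edgeR fit). The 2 progenitor genes that rose were Cxcr5, the follicle homing receptor gene, by 0.87, and Bcl6, by 0.54, with adjusted p-values of 0.0379 and 0.0353 in the blocked edgeR fit.

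Of 10 coinhibitory receptor genes outside the rule, 3 rose in the blocked edgeR fit and 0 fell. Tigit was at 548 and 524 CPM in tetramer-negative and 744 and 929 CPM in tetramer-positive members (log2 difference 0.71, adjusted p = 0.00022; 0.654 without the block). Cd160 was at 53.9 and 42.0 against 66.3 and 87.0 CPM (0.80, adjusted p = 0.000224), and Lag3 at 205 and 233 against 227 and 344 CPM (0.44, adjusted p = 0.0284), where the lowest tetramer-positive value was below the highest tetramer-negative one. Among 19 effector and exhaustion transcription factor genes, 4 rose and 3 fell. Tox (chr4:6686353-6991557, minus strand) was at 195 and 168 against 308 and 286 CPM (0.79, adjusted p = 3.12e-06; 0.596 without the block), and Ikzf2 (chr1:69531214-69687245, minus strand), which encodes HELIOS, at 158 and 120 against 314 and 297 CPM (1.23, adjusted p = 5.16e-15; 0.379 without the block). Zeb2 and Batf rose by 0.73 and 0.57. Prdm1, Irf4 and Maf fell, from levels of at most 23.0 CPM in tetramer-negative members.

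Cytotoxicity genes moved both ways, with 6 of 17 lower and 3 higher in tetramer-positive members in the blocked edgeR fit. Besides Gzma, Gzmb was at 49.6 and 68.4 against 17.2 and 12.7 CPM (log2 difference -2.01, adjusted p = 1.29e-13; 0.182 without the block) and Fasl at 37.6 and 47.9 against 8.60 and 16.3 CPM (-1.67, adjusted p = 3.89e-08; 0.241 without the block). The genes that rose encode NK receptors of the lectin family. Klrc1, which encodes NKG2A, was at 302 and 318 against 378 and 830 CPM (0.96, adjusted p = 1.94e-08), Klrk1, which encodes NKG2D, at 149 and 125 against 242 and 248 CPM (0.92, adjusted p = 3.38e-08), and Klrd1 rose by 0.72 (adjusted p = 9.68e-05). Xcl1 was at 615 and 556 against 745 and 1105 CPM (0.72, adjusted p = 0.000267; 0.69 without the block). Although Mki67 was at 0 by the rule, 6 of 16 cell-cycle genes rose and 0 fell, and the level of Ccnb2, the cyclin B2 gene, went from 7.67 and 5.11 to 24.6 and 21.2 CPM.

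Of 20 genes of chemokine receptors, adhesion and egress, 9 fell and 2 rose in the blocked edgeR fit. Ccr2 was at 41.4 and 54.2 against 3.68 and 14.9 CPM (log2 difference -2.18, adjusted p = 6.6e-13; 0.269 without the block), and Itgae, the integrin CD103 that binds E-cadherin, at 48.6 and 72.2 against 3.68 and 15.6 CPM (-2.48, adjusted p = 1.47e-18; 0.237 without the block). Of 17 cytokine receptor genes 8 fell and 0 rose, and of 17 interferon response genes 8 fell and 0 rose, among them Ly6a, which encodes SCA-1, from 516 and 698 to 84.7 and 168 CPM. Of 21 genes that TCR signals induce early, 6 fell and 0 rose, while Nr4a1, the most used reporter of such signals, was at 180 and 242 against 165 and 303 CPM and did not pass. Of 11 anergy genes 1 fell, and of 9 costimulatory receptor genes 3 rose and 2 fell, with Tnfrsf9 (4-1BB) at 176 and 172 against 232 and 293 CPM and Cd226 at 40.4 and 44.7 against 3.68 and 9.20 CPM. Exocrine pancreas genes moved with the sort as well, since 10 of 11 were lower in tetramer-positive members with a median of -1.98. The part of exocrine transcripts in the differences above was not tested beyond leaving out members with a UMI of another cell type, after which 312 genes passed the blocked fit.

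**Figure D3:**
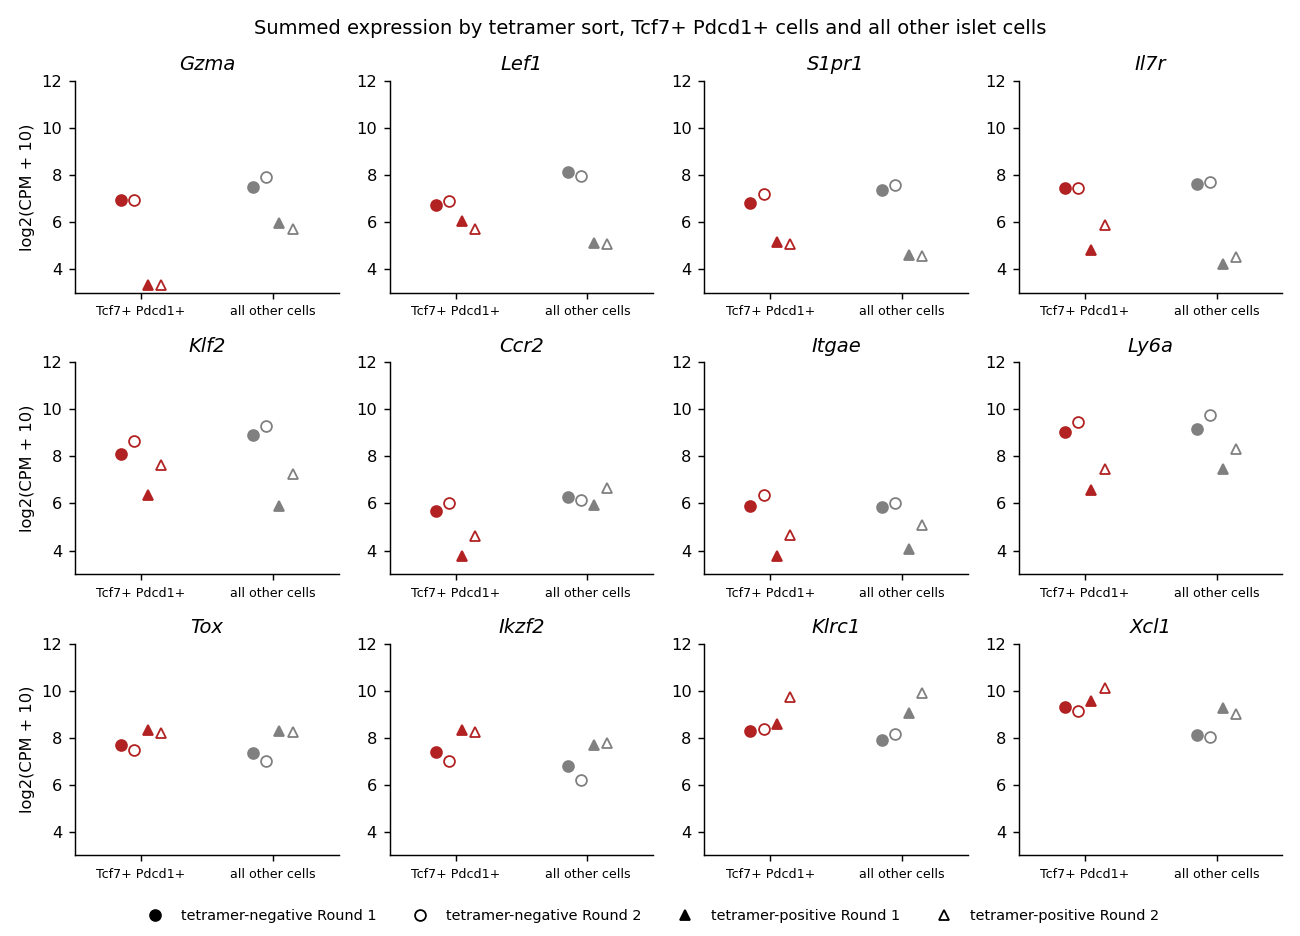
Levels of 12 named genes as log2(CPM + 10) in members and in the other kept cells of the same libraries, with 1 point for the summed UMIs of each library, circles for tetramer-negative and triangles for tetramer-positive libraries, filled for Round 1 and open for Round 2. Among members, both tetramer-positive points lay below both tetramer-negative ones for Gzma, S1pr1, Il7r and Ly6a, and above them for Tox and Ikzf2.

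For several of these genes, the tetramer difference within members was not that of the other islet cells. A fit of members and other cells of the 4 libraries, with the library as a block, found 626 of 10636 genes whose tetramer difference was not the same in both (5.89%), 311 with a higher value in members (2.92%) and 315 with a lower one (2.96%). This fit also leaves few residual degrees of freedom per gene, so its p-values lean on the spread shared across genes. The other cells were a different mixture in each sort, with 25.8 and 29.4% Tcf7+ cells without Pdcd1 in the tetramer-negative and 4.73 and 6.76% in the tetramer-positive libraries. The part of this mixture in the 626 genes was not tested. Against Havcr2+ Pdcd1+ cells alone, 68 of 8586 genes passed. That set was smaller than the other cells, with 210, 333, 129 and 222 cells, and the part of its size in the lower count was not tested. Progenitor genes had higher values in members for 10 of 22 and a lower value for 1, with a median of 0.80. In the other cells alone, 42 of 11632 genes passed without a block, 3 higher (0.0258%) and 39 lower (0.335%) in the tetramer-positive libraries, and 3851 passed with it. Ccr7 went from 488 and 978 to 122 and 254 CPM in other cells and passed in neither direction in members, a difference of the log2 differences of 1.88 ± 0.07 (SE, adjusted p = 5.99e-17, edgeR). Il7r, Lef1 and Plaur differed in the same way, by 2.03 ± 0.23, 2.33 ± 0.23 and 2.35 ± 0.13 (SE), with adjusted p-values of 1.7e-07, 1.71e-08 and 1.57e-13 by edgeR.

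Cytotoxicity genes went the other way, with lower values in members for 11 of 17 and higher values for 0, and a median of -0.79. The rule kept Havcr2+ Pdcd1+ cells out of members. These cells were 3.27 and 3.73% of the tetramer-negative and 10.7 and 13.9% of the tetramer-positive libraries. Their part in the values of the cytotoxicity genes was not tested. Gzmb rose from 135 and 188 to 213 and 268 CPM in other cells and fell in members, a difference of -2.60 ± 0.21 (SE, adjusted p = 2.52e-10, edgeR), and Fasl, from 62.2 and 74.1 to 85.3 and 140 CPM in other cells, differed by -2.43 (adjusted p = 2.15e-09, edgeR). Tox differed by -0.37 (adjusted p = 0.00511, edgeR) against all other cells and by 0.61 (adjusted p = 0.00695, edgeR) against Havcr2+ Pdcd1+ cells, so its sign depended on the cells it was set beside.

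The TCR libraries, which the rule did not use, placed members between Tcf7+ Pdcd1- cells and Havcr2+ Pdcd1+ cells in clonal expansion among tetramer-negative cells. Of members with a paired TCR, 68.6% of 373 in Round 1 (exact 95% interval 63.7 to 73.3) and 63.1% of 555 in Round 2 (58.9 to 67.1) belonged to clones of at least 2 islet cells, compared with 25.4 and 22.0% of Tcf7+ Pdcd1- cells and 92.6 and 91.5% of Havcr2+ Pdcd1+ cells. Among tetramer-positive cells the shares were 96.4% of 83 members and 97.5% of 204 members, 94.3 and 95.1% of Tcf7+ Pdcd1- cells, and every Havcr2+ Pdcd1+ cell with a paired TCR in both libraries. Set against all other cells of the same library, which were at 51.4, 44.1, 98.5 and 99.1%, the mean difference was 8.13 percentage points ± 11.5 (SD, n = 4 libraries; exact sign-flip p = 0.5), with members higher in the 2 tetramer-negative libraries only. The tetramer-positive members exceeded the tetramer-negative ones by 31.1 points (exact permutation p = 0.333, the smallest possible). Identical sequences made in more than 1 precursor count as 1 clone here, and their part in these shares was not tested.

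**Figure D4:**
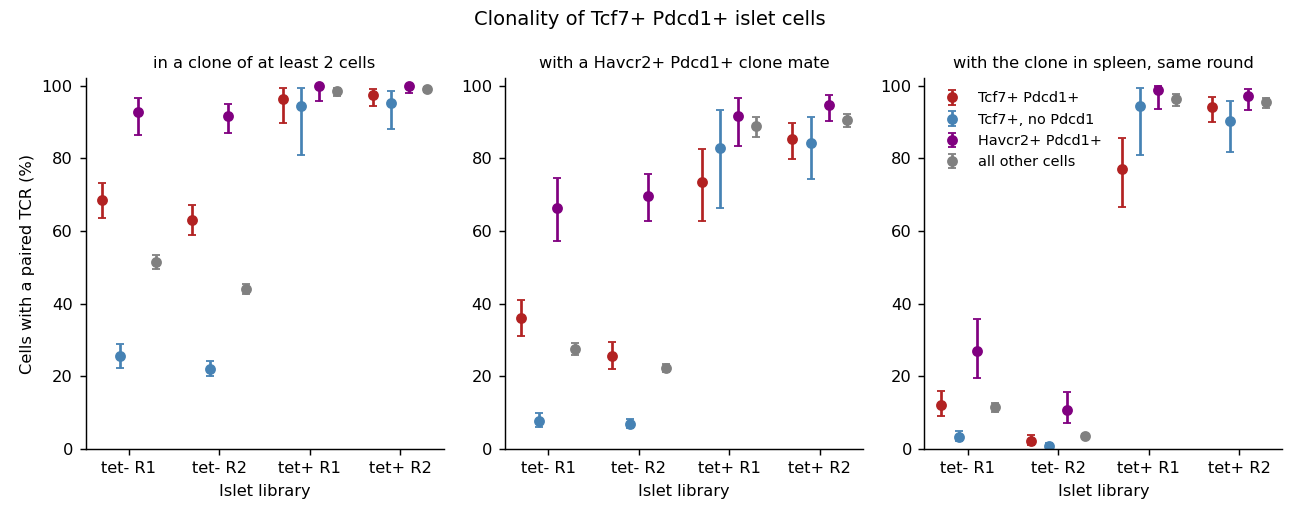
Share of cells with a paired TCR (%) that belonged to a clone of at least 2 cells, that had a Havcr2+ Pdcd1+ clone mate and that had a clone mate in spleen of the same round, for members, Tcf7+ cells without Pdcd1, Havcr2+ Pdcd1+ cells and all other cells of each islet library, with exact 95% binomial intervals as bars. In tetramer-negative libraries, members (68.6 and 63.1%) lay above Tcf7+ Pdcd1- cells (25.4 and 22.0%) and below Havcr2+ Pdcd1+ cells (92.6 and 91.5%), whereas in tetramer-positive libraries each set was at 94.3% or more.

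Members and Havcr2+ Pdcd1+ cells were often of the same clone. A Havcr2+ Pdcd1+ clone mate was found for 35.9, 25.6, 73.5 and 85.3% of members in the 4 libraries and for 7.71, 6.79, 82.9 and 84.1% of Tcf7+ Pdcd1- cells, a mean difference of 9.70 points (exact sign-flip p = 0.375, where 0.125 is the smallest possible). All other cells had such a mate in 27.5, 22.3, 88.8 and 90.6%. Pdcd1+ cells without Tcf7, Havcr2 or Mki67 had such a mate in 47.8, 40.9, 85.2 and 89.2%, above members in every library. The sharing was thus not particular to members. The share depends on clone size, and among members in clones of 2 to 9 cells it was 11.2, 11.0, 23.8 and 28.6%, against 86.4, 72.6, 94.9 and 91.9% in clones of at least 10 cells. Of the clones with at least 10 islet cells, 25 of 30, 49 of 63, 12 of 14 and 19 of 22 held at least 1 member, and members were a median of 14.3, 10.0, 8.43 and 15.5% of the cells of such a clone. The range was wide, from 0 to 44.4%. Clone A had 9 members among 116 cells in Round 1 (7.76%, exact 95% interval 3.61 to 14.2) and 4 among 31 in Round 2, beside 27 and 2 Havcr2+ Pdcd1+ cells. Clone E, whose beta sequence departs from that of clone A in the printed capitals, had 17 members among 73 cells (23.3%, 14.2 to 34.6) and 2 Havcr2+ Pdcd1+ cells. In Round 2, clone F had 31 members among 205 cells (15.1%, 10.5 to 20.8), clone C 22 among 82 (26.8%, 17.6 to 37.8) and clone G 18 among 51 (35.3%, 22.4 to 49.9). Clone H, which was smaller than these clones, consisted of members alone, 8 of 8 cells, with 1 to 6 Tcf7 UMIs and 2 to 8 Pdcd1 UMIs each, a Slamf6 UMI in 7 of them and no clone mate in spleen. Its cells were deep, with 5261 to 10841 UMIs. Among tetramer-negative clones, clone I had 27 members among 232 cells, clone J 21 among 90 and clone K 11 among 69. The clones named here were chosen after their values were seen.

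The TCR segments of members followed the sort. TRAV16N with TRAJ42, the pair in the alpha chains of clones A to G, was used by 67 of 83 and 200 of 204 tetramer-positive members (80.7 and 98.0%) and by 4 of 373 and 2 of 555 tetramer-negative members (1.07 and 0.36%). TRAV16N with any J segment was in every tetramer-positive member with a paired TCR and in 16.6 and 11.0% of tetramer-negative members. TRBV13-3 was in 77.1 and 91.7% of tetramer-positive members, compared with 94.0 and 95.9% of the tetramer-positive Havcr2+ Pdcd1+ cells. All other tetramer-positive cells together were at 89.0 and 92.9%, and Tcf7+ Pdcd1- cells at 88.6 and 89.0%. In Round 1, the members without TRBV13-3 included the 8 of clone H.

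The spleen libraries held tetramer-positive cells, and clones were matched to them by identical α and β CDR3 sequences. A clone mate in the spleen of the same pool was found for 77.1% of tetramer-positive members in Round 1 (exact 95% interval 66.6 to 85.6) and 94.1% in Round 2 (90.0 to 96.9), compared with 96.3 and 95.4% of the other tetramer-positive cells. The spleen of the other pool, which gives the background of sequences made more than once, shared clones with 20.5 and 13.7% of tetramer-positive members. In Round 1, 6 of 22 clones with members, which held 19 of the 83 members, were not seen in spleen, and clones D and H were among them. In Round 2 these were 11 of 36 clones but 12 of 204 members. Among tetramer-negative members, 12.1 and 2.16% had a clone mate among tetramer-positive spleen cells of the same pool and 0 and 0% in the other. Of the 45 such members in Round 1, 27 belonged to clone I and 12 to a clone of 88 cells, each with 1 cell in spleen. Over the 4 libraries, the difference between members and other cells was -5.29 points (exact sign-flip p = 0.25).

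Within tetramer-negative members, several genes that separated the sorts also differed with the size of the clone. This comparison was chosen after the data were seen. Members of clones with at least 10 cells (140 and 168 cells) were compared with members whose TCR was seen once (117 and 205 cells), with the library as a block, and 463 of 7198 genes passed edgeR's quasi-likelihood test (6.43%), 222 higher (3.08%) and 241 lower (3.35%) in large clones. Like the fit with the round as a block, this fit leaves 1 residual degree of freedom per gene. Its p-values thus lean on the spread shared across genes. Without the block 3 passed (0.0417%), S1pr1 and Epsti1 among them, and 401 had an unadjusted p under 0.05. S1pr1 was at 175.9 and 217.7 CPM in members of clones of 1 cell, at 80.4 and 102.9 CPM in clones of 2 to 9 cells and at 26.5 and 31.3 CPM in clones of at least 10 cells (log2 difference -2.81, adjusted p = 2.03e-21, edgeR). Il7r, Ccr7, Lef1 and Klf2 were lower in large clones as well, by -1.90, -2.15, -1.90 and -1.37 on the log2 scale. The opposite order held for Tox, at 107 and 91.5, 189 and 175, and 280 and 229 CPM (1.30, adjusted p = 4.05e-11, edgeR), and for Xcl1, at 329 and 324, 722 and 658, and 944 and 1027 CPM (1.55, adjusted p = 4.14e-24, edgeR). Tigit, Cd160, Eomes and Zeb2 were higher by 0.93, 1.51, 1.24 and 1.47. The genes that defined the cells did not follow this order, with Tcf7 at 312 and 392 CPM in clones of 1 cell and 326 and 333 CPM in large clones, and Slamf6 did not pass (-0.29, adjusted p = 0.389, edgeR). Gzma, on the other hand, was lower in large clones (-2.49, adjusted p = 7.97e-16, edgeR), where it was at 11.5 and 40.6 CPM against 106 and 174 CPM. Exocrine Prss2 was lower too (-1.63, adjusted p = 7.26e-05, edgeR).

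**Figure D5:**
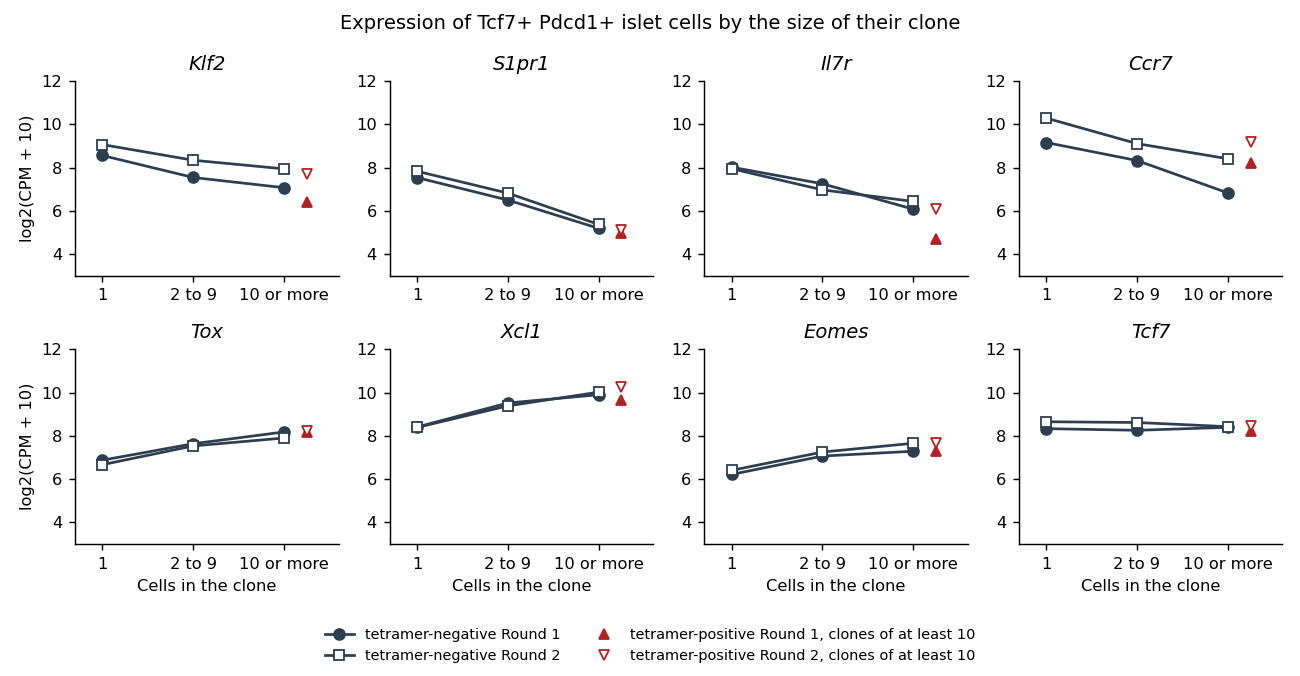
Levels of named genes as log2(CPM + 10) in members by the number of islet cells in their clone (1, 2 to 9, 10 or more), with 1 point for the summed UMIs of each library, lines joining the points of each tetramer-negative library, and the tetramer-positive members of clones of 10 or more shown beside them as triangles. In tetramer-negative libraries S1pr1 and Klf2 fell and Tox and Xcl1 rose from clones of 1 cell to clones of 10 or more, where S1pr1 was at 26.5 and 31.3 CPM beside 21.2 and 24.3 CPM in tetramer-positive members of such clones.

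Of the 463 genes that differed with clone size, 200 were also among the 811 that differed between the sorts with the round as a block. When the sorts were compared among members of clones of at least 10 cells alone (140, 168, 59 and 185 cells), 71 of 7111 genes passed with the block (0.998%), 27 higher (0.38%) and 44 lower (0.619%), and 3 TCR segments passed without it (0.0422%). This subset has fewer UMIs, and of the 811 genes 674 could be tested in it, of which 649 kept their direction and 65 passed. Its cells are among those that gave the 811 genes, so a kept direction is not independent support. S1pr1 differed by -0.27 on the log2 scale in large clones (adjusted p = 0.886, blocked edgeR fit), beside -2.24 in all members, and Il7r by -0.68 (adjusted p = 0.35), Lef1 by 0.36 (adjusted p = 0.747) and Tox by 0.28 (adjusted p = 0.678). Ccr7 was higher in tetramer-positive members of large clones, at 290 and 566 against 104 and 330 CPM (1.14, adjusted p = 8.14e-07, blocked edgeR fit). Other differences passed here too. Ikzf2 was higher by 1.05 (adjusted p = 2.12e-05), Klrc1 by 1.03 (adjusted p = 1.35e-05) and Klrk1 by 0.81 (adjusted p = 0.00576), while Ly6a was lower by -1.78 (adjusted p = 7.21e-15), Itgae by -2.37 (adjusted p = 3.59e-06) and Ccr2 by -1.82 (adjusted p = 0.00939), all in the blocked edgeR fit. Of these, Ikzf2, Klrc1, Itgae and Ccr2 had not passed the comparison of clone sizes. Gzma and Plac8 had too few UMIs in large clones to be tested.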

How the data were processed

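The authors deposited raw UMI counts per gene and cell from 5′ droplet libraries, with contig annotations of the paired TCR libraries. Cell Ranger is named in the submitters' processing notes, with version 5.0.1 in the matrix headers and mm10 as the genome build. Ambient RNA was not removed, and no doublet caller was run, the upper limit on genes per cell (3500 in islets, 2000 in spleen) being the only guard. Cells are not replicates: UMI counts were summed over the members of each library, and libraries with the same round were treated as samples of 1 pool of 10 mice. The edgeR p-values without a block thus measure the spread between 2 pools. With the round or the library as a block, they measure how the difference itself varied between pools or libraries, and lean on the spread shared across genes. The main test was edgeR's quasi-likelihood test (edgeR 4.0.16, R 4.3.3, TMM) with Benjamini-Hochberg adjustment over all genes tested, at a threshold of 0.05, without a block. Tcf7, Pdcd1, Havcr2 and Mki67 were not tested. The rounds pair the libraries by design, and the deviations of the sorts of a round from their sort means correlated (r = 0.823 over 2841 genes in members), so a fit with the round as a block is given beside it. DESeq2 1.42.0, no filter on low counts, other rules for members and the omission of each library were alternatives. Scripts were tested on simulated counts. Shares carry exact 95% binomial intervals, which, like the floor of 3 UMIs, cover counting error only. Shares of clones were compared by exact sign-flip or permutation tests in Python 3.11.15 with SciPy 1.17.1.

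Named genes were the rule's genes and Slamf6, examples from 20 gene lists, and up to 10 genes per direction with the largest change, TCR segments left out. Between sorts these had an adjusted p under 0.05, 1 direction in both rounds and at least 20 CPM. Between cell sets they had 1 direction in all 4 libraries and at least 50 CPM, and need not reach 1.5-fold in each. Genes named from the blocked fit, the clone-size comparison and the restriction to large clones were chosen after seeing the data. The members and the gene lists were chosen with earlier results of these data known, and some lists hold genes that the study used to name its clusters on these samples, so they are not independent evidence. Gene coordinates are from the GENCODE annotation of mm10. Results of some genes are not reported here.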

Additional observations from a re-analysis of the deposited data

Results flagged for a closer look

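The tetramer difference was not the same in members and in the other islet cells for 626 genes, by the interaction of sort and cell set in edgeR. On the log2 scale, and as the difference in members minus that in other cells, the named genes with higher values were Plaur (2.35), Lef1 (2.33), Il7r (2.03), Patj (2.01), Tdrp (1.90), Ccr7 (1.88), Selenop (1.86), Irgc1 (1.84), Pecam1 (1.83), Rgs10 (1.74), Id3 (1.42) and Slamf6 (0.52). Those with lower values were Gzma (-10.98), Prdm1 (-3.16), Gzmb (-2.60), Fasl (-2.43), Ccr2 (-2.40), Wdr95 (-2.29), Dennd5a (-2.09), Sytl2 (-2.05), Hist1h2ad (-2.02), Entpd1 (-2.01), Cxcr6 (-1.82) and Tox (-0.37). The value of Gzma rests on 0 UMIs in tetramer-positive members and depends on the prior count of the fit, so it is no measure of size. Gzma UMIs were present in the other tetramer-positive cells at 52.3 and 42.0 CPM.

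Cells that met the same rule on the 4 genes were also found in spleen, in libraries that no comparison of expression used. They were 140 of 3524 tetramer-positive spleen cells in Round 1 (3.97%, exact 95% interval 3.35 to 4.67) and 148 of 2430 in Round 2 (6.09%, 5.17 to 7.12), at median depths of 2590 and 2764.5 UMIs. Spleen cells were kept at 200 to 2000 detected genes, unlike the 200 to 3500 in islets. These shares are thus not on equal terms with those in islets. The series holds no library of tetramer-negative spleen cells.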

How the results depend on the processing

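The count of genes that differed between the sorts in members, 3 as reported, was 811 with the round as a replicate block, 312 with the block and without members that held UMIs of other cell types, 71 with the block in clones of at least 10 cells, 30 with DESeq2, 187 with no filter on low counts, 0 with Slamf6 also required, 0 when cells with over 3500 genes were kept, and 2 to 103 without 1 library (103 and 72 without tetramer-negative Round 1 or Round 2). In the other islet cells it was 42 as reported, 3851 with the block, 415 with DESeq2, 804 with no filter and 0 to 100 without 1 library. The 626 genes of the difference of the tetramer differences became 285 with DESeq2 and 68 against Havcr2+ Pdcd1+ cells, and the 463 of clone size 3 with no replicate block. Genes higher in members than in other cells numbered 14 as reported, 58 with 1 CPM added, 3 with 50 CPM added and 9 at a mean of at least 50 CPM. Genes lower in members numbered 23 as reported, 62 with the other cells weighted to the UMI distribution of members, 128 with 1 CPM added and 6 with 50 CPM added. The causes of these changes were not tested, beside the fewer samples, cells or genes that an alternative leaves.

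Named genes that reversed between the sorts were Ms4a6d (-2.75 without tetramer-positive Round 1, within -2.75 to 6.52 without 1 library), Slamf6 (-0.0366 with no filter, -0.0291 to 0.0332 without 1 library, being lower without tetramer-negative Round 1 and, at -0.0141, without tetramer-positive Round 2, and -0.00665 with Slamf6 required), Ccr7 (-0.484 to 0.478 without 1 library, the highest without tetramer-negative Round 2, 0.17 without tetramer-positive Round 1, and 1.09 and 1.13 in large clones without and with the block) and Lef1 (0.274 and 0.357 in large clones). Tox reversed to 0.61 in the difference of the tetramer differences against Havcr2+ Pdcd1+ cells. Over all named genes and alternatives, 595 values kept their direction and side of the threshold, 136 passed it anew, 36 no longer passed and 25 moved. The shares of members and of clones kept their direction under every alternative run, and none of their exact tests could reach 0.05 at this number of libraries.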
